A study of Mus musculus with 34 samples.

Results

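Lysosomal cathepsins are the proteases that digest proteins inside lysosomes, and 10 of their genes were followed here in the left ventricle (LV) of the infarcted mouse heart: Ctsa, Ctsb, Ctsc, Ctsd, Ctsf, Ctsh, Ctsk, Ctsl, Ctss and Ctsz. They were taken by gene symbol without a filter on their values, though the list was chosen with earlier results of these data known. Each was listed in both deposited tables, as 10 of 14552 genes in the first table and 10 of 17406 in the second. All 10 averaged 1 or more in CPM, the read count scaled to library size, and so entered every test. The first table holds libraries of 3 sham hearts, 3 hearts at 4 h after myocardial infarction (MI) and 4 hearts at 24 h after MI, without any injection; per the study's text a piece of the ischemic area was used. The second table holds 2 sham libraries at 4 h and hearts that received modified mRNA (modRNA) in the border zone of the infarct right after ligation. Of these, 4 received AC modRNA and 4 Luc modRNA with collection at 4 h, 3 and 3 at 24 h, and 4 and 4 at 48 h. Luc is firefly luciferase, the control message, while the labels give AC only as these letters. All mice were of the outbred CFW stock, without a transgene or deletion, and MI was made by tying off the left anterior descending (LAD) coronary artery for good. The controls of the first table are named sham in their titles and described as sham operated in the study's text, whereas another of their labels reads no operation. Ages of the mice are not given in the sources used here. No label says that each library came from a separate mouse, so p-values measure the spread between libraries, which may in part be technical.

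Cathepsins are made as inactive precursors, tagged with mannose 6-phosphate, carried to lysosomes by its receptors, and cleaved there to the active form at low pH. Ctsd is an aspartic protease and Ctsa a serine carboxypeptidase that also protects other lysosomal enzymes, while the other members belong to the papain-like cysteine family and are held in check by cystatins. Every cell carries some of them, but Ctss is known for macrophages, dendritic cells and B cells, Ctsk for bone-resorbing osteoclasts and activated fibroblasts, and Ctsc for activating the granule proteases of neutrophils and mast cells. In an infarct, dead cardiomyocytes are cleared by phagocytes, whose lysosomes are rich in these enzymes. In bulk tissue, fewer cells of a type and less RNA per cell cannot be told apart.

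Promoter stretches are shown because members that moved together in the results can be compared by them. Promoter windows, from 250 bases before to 50 bases after a start site (RefSeq, GRCm38.p6), were at hand for 8 of the 10 genes, in 9 windows, and not for Ctsb and Ctsh. The search covered 3 motifs on both strands, chosen with earlier results of these data known. CACGTG is the E-box core bound by factors such as Tfeb, TCACGTGA is its palindromic extension in many lysosomal promoters (each such match also counts as CACGTG), and GAGGAAGT is the core of sites for PU.1, a factor of myeloid cells. CACGTG was found in 4 genes (Ctsa, Ctsd, Ctsf, Ctsl) and in 7.15% of all 32851 windows, TCACGTGA in 2 genes (Ctsa, Ctsd) and in 0.974% of windows, and GAGGAAGT in 2 genes (Ctsc, Ctss) and in 3.2% of windows. Members are counted here by gene and the background by window, with 27025 genes behind the 32851 windows, so the 2 are not in like units. Each stretch runs 5′ to 3′ on the strand of its gene, and capitals mark the motif, which in Ctss and Ctsc is read on the opposite strand:
Ctss, chr3:95526773-95526802, plus strand: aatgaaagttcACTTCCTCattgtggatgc
Ctsc, chr7:88277923-88277952, plus strand: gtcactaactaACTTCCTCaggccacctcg
Ctsd, chr7:142387908-142387937, minus strand: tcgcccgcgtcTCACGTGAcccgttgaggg
Ctsa, chr2:164833749-164833778, plus strand: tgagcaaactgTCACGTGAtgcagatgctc
Ctsl, chr13:64370740-64370767, minus strand: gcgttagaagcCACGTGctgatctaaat
Ctsf, chr19:4855075-4855102, plus strand: accccgtggtcCACGTGcctcgcgtaaa
A match is a description of letters and not evidence of binding. In Ctss the motif spans the start site, with its first base at position -2, and in Ctsa TCACGTGA occurs 2 times in the same window. Among the 10 genes, Ctsk (3:95499210-95509387) and Ctss (3:95526786-95556405) are neighbours on the plus strand of chromosome 3, 17398 bp apart, with no other listed gene between them.

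Libraries of the first table held an estimated 12553440 to 18952669 reads on the listed genes, taking the lowest value of a library as 1 read, while depth in the second table is unknown. Asah1, the gene of the lysosomal enzyme acid ceramidase, separated the AC libraries from all others, with 5296 to 13703 CPM at 4 h, 104 to 305 CPM at 24 h and 42.5 to 112 CPM at 48 h, against 21.4 to 32.9 CPM in Luc and sham libraries of the same table. Reads of an injected message and of the gene of the heart itself cannot be told apart in such values. Cardiomyocyte markers summed to between 22512 and 81440 CPM in each of the 34 libraries, as in heart muscle. This sum does not tell ventricle from atrium. Myl7, an atrial myosin light chain, was at 0.0326 to 0.0952 CPM in sham hearts of the second table. At 24 h it was at 17.0 to 61.3 CPM with Luc and 9.05 to 112 CPM with AC modRNA. At 48 h it was at 1.49 to 20.6 and 8.84 to 24.8 CPM. Whether atrial tissue entered these libraries was not tested. Sample numbers in the titles run on from sham through 4 h and start anew at 48 h, and titles at 24 h carry none. Times of the second table therefore cannot be told apart from such sets. AC and Luc hearts lie within the same run of numbers at 4 h and at 48 h. At 24 h the titles do not show whether they share a set. The tables were normalized separately, and levels are compared only within a table.

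In sham hearts of the first table, levels per kilobase of the longest RefSeq transcript ranged over 2 orders of magnitude among the cathepsins. Ctsd stood far above the rest, at 379 ± 7.52 CPM per kb (SD, n = 3). Ctsb followed with 88.2 ± 2.75, Ctsl with 65.7 ± 8.70 and Ctsa with 30.2 ± 2.81 CPM per kb, and the ranges of these 4 genes did not overlap. Ctsz, Ctss, Ctsf, Ctsh and Ctsc formed a low group between 11.4 ± 0.691 and 6.91 ± 0.279 CPM per kb, in which each range overlapped with the next in order. Ctsk was lowest, with 2.50 ± 0.200 CPM per kb. Ctsd alone made up 52.1 ± 0.984% of the summed CPM of the 10 genes in these hearts. In the second table the sham order was the same for the first 5 places, with Ctsd at 513 ± 26.6 CPM per kb (SD, n = 2) and Ctsk last at 4.19 ± 0.906.

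After MI the order changed through a rise of Ctss, Ctsz and Ctsc and a fall of Ctsf at 24 h, whereas no cathepsin passed the test at 4 h. Ctss, a protease of antigen-presenting cells, was at 15.3, 13.1 and 10.3 CPM in the 3 sham hearts, 16.9, 17.7 and 14.3 CPM at 4 h, and 115, 75.2, 52.4 and 57.6 CPM at 24 h. All 4 hearts at 24 h lay above all hearts of the other groups. Its mean at 24 h was 5.82 ± 2.48 times that of sham (ratio of means, SD propagated from both groups), with a log2 difference of 2.40 ± 0.23 (SE) on log2(CPM + 1) and an adjusted p of 5.74e-06 (limma, adjusted over 12487 genes). Per kilobase it moved from the sixth place among the cathepsins to the fourth, at 55.4 ± 21.0 CPM per kb (SD, n = 4).

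Ctsz, a carboxypeptidase of the same family, was at 17.2, 16.7 and 15.3 CPM in sham hearts, 20.8, 19.3 and 19.9 CPM at 4 h, and 70.5, 43.7, 47.8 and 53.4 CPM at 24 h. At 24 h its mean was 3.29 ± 0.745 times that of sham (log2 difference 1.64 ± 0.14, adjusted p = 2.65e-06). Ctsc, which activates granule serine proteases, was at 22.2, 21.4 and 23.2 CPM in sham hearts, 25.1, 21.9 and 28.3 CPM at 4 h, and 79.6, 46.6, 51.7 and 45.6 CPM at 24 h. Its mean at 24 h was 2.51 ± 0.728 times that of sham (log2 difference 1.25 ± 0.17, adjusted p = 7.41e-05). For both genes, as for Ctss, library C at 24 h was the highest and none of the 24 h hearts overlapped with sham.

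Ctsf, a papain-like cysteine protease, moved the other way. It was at 14.2, 23.8 and 13.7 CPM in sham hearts, 11.6, 21.3 and 22.8 CPM at 4 h, and 4.01, 12.8, 6.36 and 4.72 CPM at 24 h, where its log2 difference from sham was -1.27 ± 0.34 (adjusted p = 0.00656). Ctsl, a broadly expressed endopeptidase, was at 147, 128 and 113 CPM in sham hearts and 169, 174, 148 and 142 CPM at 24 h. The groups overlapped, and its log2 difference of 0.29 ± 0.11 passed narrowly (adjusted p = 0.0415). This call was lost without library C or D at 24 h or without sham H or I, with log2 differences of 0.26, 0.24, 0.29 and 0.20, and its adjusted p ranged from 0.0162 to 0.245 over 15 alternatives. Ctsd was at 792 to 823 CPM in sham hearts and 619.9 to 722 CPM at 24 h without overlap, with a log2 difference of -0.25 ± 0.10 that missed the threshold (adjusted p = 0.052) and passed it in 5 of the alternatives.

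Altogether 4 cathepsins were higher and 1 lower at 24 h, that is 5 of 10, while 66.0% of all genes tested were called, 35.6% higher and 30.3% lower. Without overlap between the groups were 5 of the 10, against 64.0% of all genes, and the median log2 difference was 0.17 for the cathepsins and 0.04 for all genes. At 4 h none of 10 was called, against 2.37% of all genes (1.55% higher, 0.817% lower). Ctsk and Ctsl had unadjusted p-values of 0.0154 and 0.0183 at 4 h (limma), were called with array weights, which weigh libraries by their quality, and their adjusted p was 0.189 and 0.203 without them. From 4 h to 24 h, Ctss, Ctsz and Ctsc rose by 2.07, 1.36 and 1.09 on the log2 scale and Ctsf fell by 1.36, 4 of 10 against 63.9% of all genes (37.2% higher, 26.7% lower). Ctsa, Ctsb, Ctsh and Ctsk were not called at either time, with 107 to 129, 421 to 489, 9.40 to 14.2 and 3.84 to 5.89 CPM at 24 h.

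**Figure D1:**
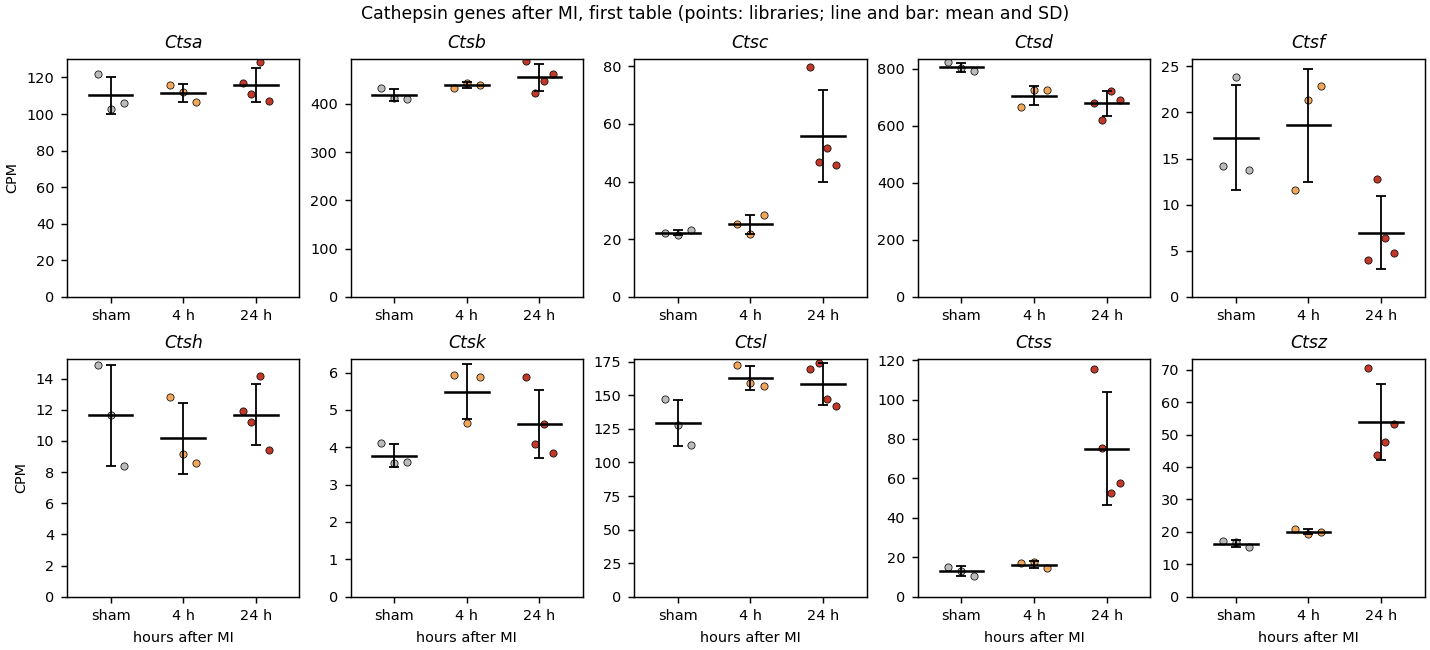
CPM of each cathepsin gene in the libraries of the first table (points), with the mean (line) and SD (bar) of 3 sham hearts, 3 hearts at 4 h and 4 hearts at 24 h after MI; the vertical axes start at 0 and differ between genes. Ctsc, Ctss and Ctsz at 24 h lie above all sham hearts, from 45.6, 52.4 and 43.7 CPM upwards, and Ctsf at 24 h lies at 12.8 CPM or less.

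Markers of other cells differed at 24 h as well, beside 66.0% of all genes called, and their part in the cathepsin changes was not tested. Of 12 macrophage and monocyte markers, 6 were higher and 1 lower, with a sum of 454 to 806 CPM against 177 to 275 CPM in sham hearts. All 7 neutrophil markers tested were higher, with a sum over 10 listed markers of 408 to 2067 CPM against 2.34 to 3.58 CPM. The 9 cardiomyocyte markers summed to 22512 to 37264 CPM at 24 h and 49378 to 52740 CPM in sham hearts, and 4 of them were lower and 1 higher. Of 8 fibroblast markers 4 were lower and 0 higher, with a sum of 418 to 758 CPM against 741 to 782 CPM. No gene listed in the first table was at 0 in any library, so its markers could not be either. In sham hearts Ly6g lay at the lowest value of each library, 0.0325 to 0.0403 CPM.

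In hearts injected with Luc modRNA, Ctss and Ctsz again rose with time, Ctsf fell late, and Ctsl had its highest mean at 24 h. Ctss was at 17.4 and 15.5 CPM in the 2 sham hearts, 20.4, 16.5, 18.8 and 19.6 CPM at 4 h, 40.0, 34.0 and 38.8 CPM at 24 h, and 80.9, 64.6, 49.9 and 42.4 CPM at 48 h. Against sham, its log2 difference was 1.15 ± 0.21 at 24 h (adjusted p = 3.01e-04, over 12555 genes) and 1.75 ± 0.20 at 48 h (adjusted p = 2.46e-06). Ctsz was at 19.0 and 19.4 CPM in sham hearts, 23.2 to 28.7 CPM at 4 h, 43.3, 32.6 and 38.2 CPM at 24 h, and 46.0, 41.5, 35.6 and 36.9 CPM at 48 h, with log2 differences from sham of 0.94 ± 0.18 and 1.02 ± 0.17. Between 24 h and 48 h, Ctss rose further, by 0.61 ± 0.18, and Ctsz did not pass the test, with a difference of 0.07 ± 0.15 (adjusted p = 0.709).

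Ctsl was at 170.2 and 159 CPM in sham hearts and 167 to 182 CPM at 4 h, and reached 429, 262 and 342 CPM with Luc modRNA at 24 h. The 24 h hearts lay above all hearts of the earlier groups. Its mean was 2.09 ± 0.519 times that of sham (log2 difference 1.03 ± 0.28, adjusted p = 0.00748). Without sham 1 the call of Ctsl was lost (log2 difference 1.08, adjusted p = 0.0527), as was that of Ctsa (0.33, adjusted p = 0.273), which left 2 of the 4 calls at 24 h. The call of Ctsa was lost without Luc D as well (0.37, adjusted p = 0.122). At 48 h, Ctsl was spread widely, with 324, 173, 279.7 and 139.6 CPM in Luc hearts. In the first table, by contrast, Ctsl at 24 h reached no more than 174 CPM, 1.22 ± 0.202 times its sham mean. Ctsc also differed between tables at 24 h, where it was at 13.6, 9.09 and 12.5 CPM with Luc modRNA and 19.8 and 13.9 CPM in sham hearts, a mean of 0.696 ± 0.222 times sham, in place of 2.51 times in the first table. It rose at 48 h, to 27.0, 39.1, 18.4 and 36.8 CPM (log2 difference from sham 0.78 ± 0.25, adjusted p = 0.0219). That call was lost without sham 2 (0.54, adjusted p = 0.23), Luc 2 (0.64, 0.0599) or Luc 4 (0.67, 0.0524). The differences between tables were not tested, since the tables were normalized separately and their hearts differed in injection.

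Ctsf, at 24.4 and 27.2 CPM in sham hearts, was still at 31.9, 24.1 and 20.2 CPM with Luc modRNA at 24 h and at 8.83, 11.5, 8.52 and 8.41 CPM at 48 h, below all earlier hearts. Its fall from 24 h to 48 h was -1.34 ± 0.20 on the log2 scale (adjusted p = 5.34e-05). Ctsh, an aminopeptidase, was at 24.9 to 31.5 CPM with Luc modRNA at 4 h, 10.4 to 17.8 CPM at 24 h and 8.71 to 20.8 CPM at 48 h, and was lower than at 4 h by 0.97 ± 0.25 and 0.90 ± 0.23. Ctsa, Ctsb and Ctsd were called lower at 48 h than at 24 h, by 0.53, 0.60 and 0.59 on the log2 scale. After median-ratio rescaling Ctsa and Ctsd were no longer called in this comparison, with log2 differences of -0.28 and -0.34, nor was Ctsl (-0.39). The call of Ctsl here was also lost without Luc A or D at 24 h or Luc 2 or 4 at 48 h, with -0.47, -0.63, -0.53 and -0.43. The median over all genes was -0.25 between these times before rescaling and -0.02 after it.

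In counts, Luc hearts differed from sham in 0 of 10 cathepsins at 4 h (1.55% of all genes called, 1.25% higher and 0.295% lower), where the lowest unadjusted p was 0.0504 for Ctsz (limma). At 24 h, 4 were higher (34.1% of all genes called, 25.3% higher and 8.79% lower), and at 48 h 3 were higher and 1 lower (30.1%, 13.7% and 16.4%). From 4 h to 24 h, 3 cathepsins rose and 1 fell (32.3% of all genes called, 24.5% higher and 7.80% lower). From 24 h to 48 h, 2 rose and 5 fell (41.9%, 9.32% and 32.6%), and from 4 h to 48 h 3 rose and 5 fell (36.5%, 15.0% and 21.5%). Without replicate 1 of Luc at 4 h, the last count was 3 and 2, as Ctsa, Ctsb and Ctsd were then not called (-0.25, -0.37 and -0.41), and Ctsa lost its call without 7 of the 8 libraries in turn. The share of calls that were higher, over all genes, was 74.2% for 24 h against sham (53.4% after median-ratio rescaling), 75.9% for 24 h against 4 h (52.1%) and 22.3% for 48 h against 24 h (49.7%). The median of all genes was 0.16 and 0.14 in the first and second of these, and -0.01 in both after rescaling. In AC hearts, 3 rose from 4 h to 24 h (18.7% of all genes called, 14.9% higher and 3.80% lower). From 24 h to 48 h, 3 rose and 3 fell (44.5%, 19.0% and 25.5%), and from 4 h to 48 h 4 rose and 2 fell (47.6%, 26.6% and 21.0%). Ctss, Ctsz and Ctsl rose in the first of these AC comparisons, for which 79.7% of all calls were higher and 51.7% after rescaling, with a median of all genes of 0.11 and -0.02. Without AC A at 24 h, Ctsl was not called from 4 h to 24 h (0.71, adjusted p = 0.0784), and without AC D neither (0.85, 0.0561). Ctsc, Ctss and Ctsz rose and Ctsd, Ctsf and Ctsl fell in the second comparison, and Ctsk rose beside Ctsc, Ctss and Ctsz in the third, where Ctsd and Ctsf fell. Ctsd and Ctsl were not called in the second without AC A at 24 h (-0.38 and -0.65). In the third, the call of Ctsd was lost without AC 1 or AC 3 at 4 h (-0.32 and -0.40), and that of Ctsk without AC 3 (0.52, adjusted p = 0.0519).

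Markers of other cells moved in the Luc hearts too, and their part in the cathepsin changes was not tested. At 24 h against sham, 4 of 4 atrial markers were higher, with a sum of 362 to 603 CPM against 60.7 to 117 CPM. Most of the sum was Nppa, at 316 to 460 CPM against 59.2 to 116 CPM. Myl7, the atrial myosin light chain, was at 17.0 to 61.3 CPM against 0.0326 to 0.0952 CPM. From 24 h to 48 h, when Ctsl fell, 3 of the 4 atrial markers were lower and 1 higher, and Myl7 was at 1.49 to 20.6 CPM. Also at 24 h against sham, 8 of 8 neutrophil markers were higher, 7 of 12 macrophage and monocyte markers were higher and 2 lower, and 3 of 8 fibroblast markers were higher, beside 34.1% of all genes called. From 24 h to 48 h, 7 of 9 cardiomyocyte markers were lower and 0 higher, beside 41.9% of all genes. Of 11 neutrophil markers 1 was at 0 in both sham libraries.

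**Figure D2:**
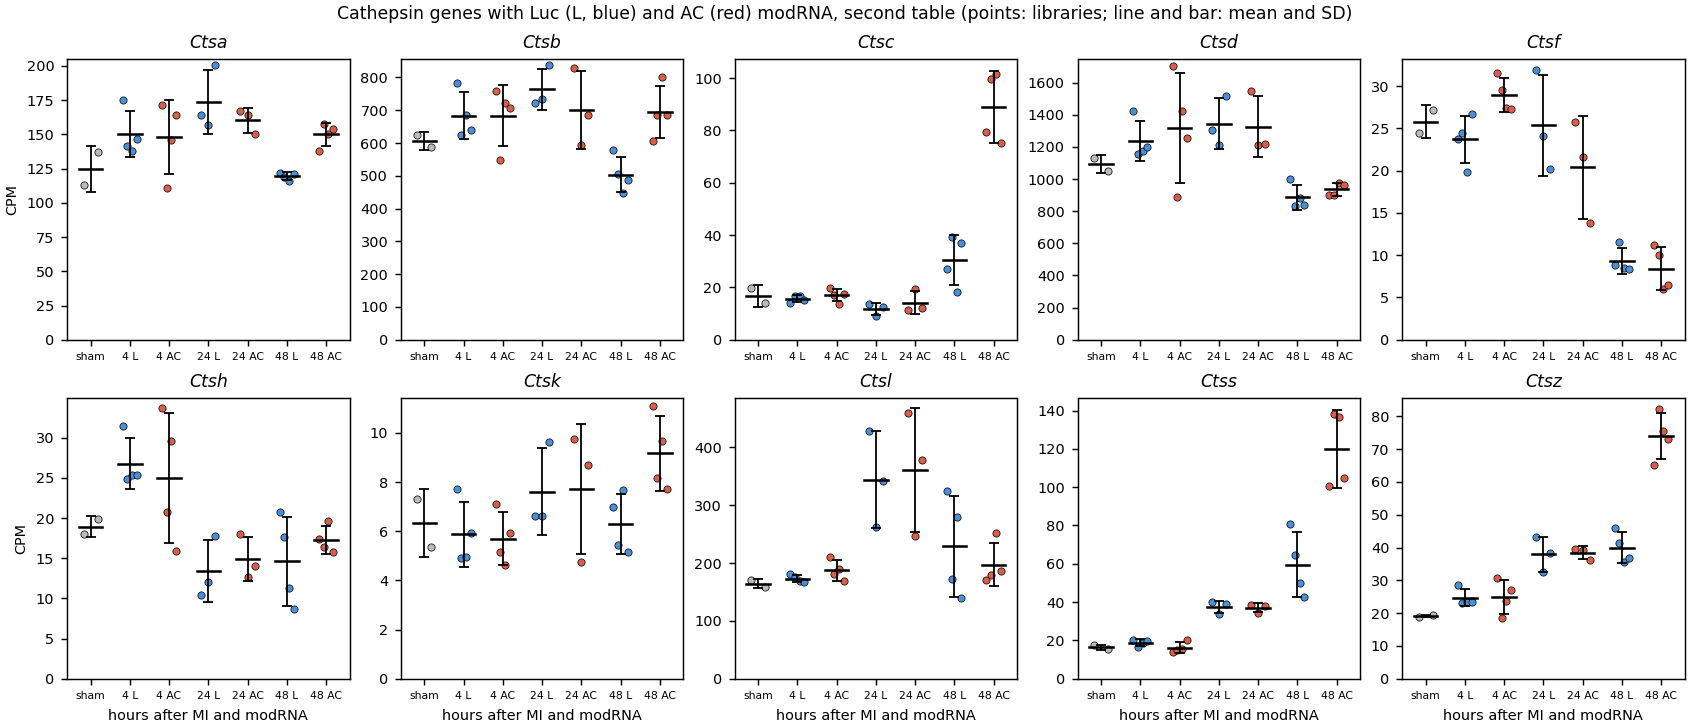
CPM of each cathepsin gene in the 24 libraries of the second table (points), with the mean (line) and SD (bar) of each group: 2 sham hearts (grey), and Luc (L, blue) and AC (red) modRNA hearts at 4, 24 and 48 h; the vertical axes start at 0 and differ between genes. At 48 h the AC hearts lie above the Luc hearts for Ctsc (75.3 to 102 against 18.4 to 39.1 CPM), Ctss and Ctsz, while Ctsf is low in both.

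The comparison of AC with Luc modRNA at the same time asks what AC changed in the infarcted heart, and for cathepsins the hearts differed at 48 h and not detectably before. At 4 h and at 24 h, 0 of 10 cathepsins were called, and 0.00796% of all genes, which is 1 gene (limma), Asah1. No cathepsin had an unadjusted p under 0.05 at either time. For Ctss, 13.9, 15.2, 15.3 and 20.3 CPM with AC stood against 20.4, 16.5, 18.8 and 19.6 CPM with Luc at 4 h, and 38.6, 34.3 and 38.0 against 40.0, 34.0 and 38.8 CPM at 24 h. Its log2 difference was -0.22 at 4 h (95% confidence interval -0.55 to 0.12) and -0.02 at 24 h (-0.41 to 0.37). For Ctsc, 19.8, 17.1, 13.8 and 17.7 CPM with AC stood against 14.2, 16.8, 16.7 and 15.2 CPM at 4 h, and 11.3, 19.4 and 12.0 against 13.6, 9.09 and 12.5 CPM at 24 h, with intervals of -0.32 to 0.53 and -0.25 to 0.73. The interval of Ctsz was -0.28 to 0.28 at 4 h and -0.30 to 0.35 at 24 h. Over the 10 genes, the widest intervals were those of Ctsh, from -0.62 to 0.33 at 4 h and from -0.38 to 0.71 at 24 h. Ctsf was the 1 of 10 genes without overlap at 4 h (27.3 to 31.6 CPM with AC, 19.9 to 26.7 CPM with Luc, adjusted p = 1), against 2.02% of all genes, and none was without overlap at 24 h (9.33%).

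At 48 h, Ctsc, Ctss, Ctsz and Ctsb were higher with AC modRNA. Ctsc was at 79.3, 99.7, 102 and 75.3 CPM in the AC hearts and 27.0, 39.1, 18.4 and 36.8 CPM in the Luc hearts. The groups were far apart, with a ratio of means of 2.93 ± 1.03 and a log2 difference of 1.57 ± 0.20 (adjusted p = 6.58e-05). Ctss was at 100.5, 138, 136 and 105 CPM with AC and 80.9, 64.6, 49.9 and 42.4 CPM with Luc, a ratio of 2.02 ± 0.670 and a log2 difference of 1.03 ± 0.16 (adjusted p = 2.54e-04). Ctsz was at 65.3, 82.4, 75.7 and 73.0 CPM with AC and 46.0, 41.5, 35.6 and 36.9 CPM with Luc, a ratio of 1.85 ± 0.282 and a log2 difference of 0.88 ± 0.14 (adjusted p = 2.14e-04). These 3 genes passed under all 16 alternatives, with adjusted p-values of at most 0.0074 for Ctsc, 0.012 for Ctss and 0.0074 for Ctsz. They are also the 3 cathepsins with the largest rises at 24 h in the first table, where no modRNA was given.

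Ctsb, an abundant endopeptidase and exopeptidase, was at 607, 685, 801 and 686 CPM with AC and 577, 504, 446 and 488 CPM with Luc, a ratio of 1.38 ± 0.218 and a log2 difference of 0.46 ± 0.13 (adjusted p = 0.0213). This call was lost without AC 2 (0.47, adjusted p = 0.0507), AC 4 (0.39, 0.0819) or Luc 3 (0.41, 0.0899), and after median-ratio rescaling (0.32, 0.0694). Ctsa, at 138, 157, 150.2 and 154 CPM with AC and 122, 119, 116 and 121 CPM with Luc, did not overlap between the groups but missed the threshold (log2 difference 0.32 ± 0.13, adjusted p = 0.0841). Ctsk, a collagen-degrading protease, was at 7.72 to 11.1 CPM with AC and 5.14 to 7.66 CPM with Luc, and missed it as well (0.48 ± 0.20, adjusted p = 0.0976). Both passed with array weights. Ctsd, Ctsf, Ctsh and Ctsl overlapped between the groups, with intervals of -0.23 to 0.39, -0.55 to 0.23, -0.18 to 0.77 and -0.60 to 0.30.

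In all, 4 of 10 cathepsins were higher and 0 lower, against 12.1% and 3.27% of all genes, 15.3% in either direction. Without overlap were 6 of 10, all higher with AC, against 19.1% of all genes. The median log2 difference was 0.39 for the cathepsins and 0.14 for all genes. After median-ratio rescaling the median of all genes was 0.01, 3 cathepsins remained higher, and the share of all calls that were higher went from 78.7% to 52.2%. Among the 8 genes with a promoter window, Ctsc and Ctss, with GAGGAAGT, were called at 48 h, as was Ctsz, which held none of the 3 motifs. The 4 genes with CACGTG were not called, nor was Ctsk, which also held none, and no test of motif against call was made. As the motifs were chosen with earlier results of these data known, no conclusion is drawn from this listing.

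**Figure D3:**
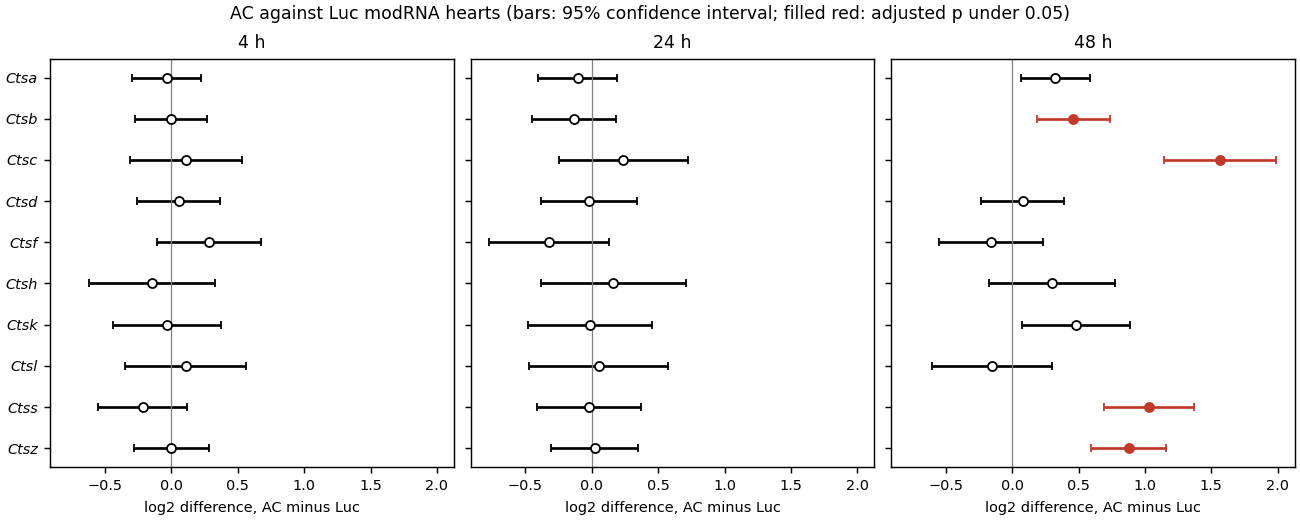
Log2 difference on log2(CPM + 1) between AC and Luc modRNA hearts for each cathepsin gene at 4, 24 and 48 h (points), with 95% confidence intervals from limma (bars); filled red points have an adjusted p under 0.05. No gene is filled at 4 h or 24 h, and at 48 h Ctsc (1.57), Ctss (1.03), Ctsz (0.88) and Ctsb (0.46) are filled.

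Markers of other cells differed between AC and Luc hearts at 48 h too, beside 15.3% of all genes called (12.1% higher, 3.27% lower). The part of these markers in the cathepsin differences was not tested. Of 12 macrophage and monocyte markers, 7 were higher with AC, and their sum was 548 to 679.6 CPM with AC and 311 to 439 CPM with Luc. Of 8 fibroblast markers, 4 were higher, with sums of 1368 to 2151 and 786 to 1213 CPM. Of 8 neutrophil markers tested, 2 were lower, with sums of 132 to 201 and 204 to 671 CPM. Cardiomyocyte markers summed to 27309 to 35688 CPM with AC and 36859 to 51489 CPM with Luc, and 2 of 9 were lower. Of 4 atrial markers, 1 was higher, with sums of 1227 to 2966 and 533 to 1169 CPM, and of 6 endothelial markers none was called. Most of the atrial sums was Nppa, at 1189 to 2898 and 491 to 1106 CPM, while Myl4, Myl7 and Sln overlapped between the groups. No marker was at 0 in all libraries of either group, though 2 neutrophil markers were at 0 in at least 1 Luc library and 1 in at least 1 AC library.

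The difference between AC and Luc hearts grew from 4 h to 48 h for Ctsc, Ctss and Ctsz. The change of the log2 difference was 1.46 ± 0.29 for Ctsc (adjusted p = 0.00946), 1.24 ± 0.23 for Ctss (0.00696) and 0.88 ± 0.19 for Ctsz (0.0144), 3 of 10 against 3.35% of all genes (2.88% higher, 0.470% lower). These calls stood with each library left out in turn, though not under each other alternative. From 24 h to 48 h the change was 1.33 ± 0.31 for Ctsc (adjusted p = 0.0239), 1.05 ± 0.25 for Ctss (0.0247) and 0.85 ± 0.21 for Ctsz (0.0283), again 3 of 10, against 2.56% of all genes (2.23% higher, 0.335% lower). This second set of calls was less firm, with 0 of 10 left without Luc D at 24 h, AC 2 at 48 h or AC 4 at 48 h, and 1 left without AC D at 24 h or Luc 3 at 48 h. Single calls were also lost without AC A at 24 h (Ctsc, 1.19), Luc A at 24 h (Ctsz, 0.76) and AC 5 at 48 h (Ctsz, 0.86). Over 22 alternatives the change of Ctsc ranged from 1.01 to 1.56. Between 4 h and 24 h no cathepsin was called (0.00796% of all genes), and Ctsf had the lowest unadjusted p (0.0475, limma). The share of calls that were higher, over all genes, went from 86% to 61.2% for 48 h against 4 h and from 87% to 57.2% for 48 h against 24 h after rescaling, and the medians of all genes from 0.12 to -0.01 and from 0.17 to 0.02.

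Genes of other lysosomal functions were called in both directions at 24 h after MI, to be read beside 66.0% of all genes called in that comparison (35.6% higher, 30.3% lower). Of 34 other lysosomal hydrolases, 5 were higher and 14 lower at 24 h after MI in the first table, among them Scpep1 (log2 difference 0.45) on the one side and Idua (-1.51) and Arsb (-1.28), enzymes of glycosaminoglycan breakdown, on the other. Scpep1 was not called without sham H (0.42, adjusted p = 0.0607). Among 12 genes of sorting and maturation, 3 were higher and 5 lower. Lgmn, the asparaginyl endopeptidase that cleaves cathepsin precursors, went from 63.7 to 75.2 CPM in sham hearts to 107 to 122 CPM (0.70), and M6pr, the small mannose 6-phosphate receptor, rose by 0.55. Igf2r, the large receptor (-1.03), Sort1 (-1.10) and Psap, the precursor of the saposins (-0.62), were lower. Of 14 membrane proteins 6 were higher, with Laptm5 (2.09) and the macrophage protein Cd68 (2.05) first, and 6 lower, with Npc1 (-1.65) and Mcoln1 (-0.54) first. Of 16 subunits of the proton pump (V-ATPase), 9 were higher, Atp6v1h (1.49) and Atp6v1b2 (0.76) most, and 4 lower, Atp6v1d (-0.51) and Atp6v0a1 (-0.46) most.

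Of 6 cystatin inhibitors tested, 4 were higher at 24 h and none lower. This count and those of the next lists stand beside 66.0% of all genes called (35.6% higher, 30.3% lower). Cstb, an inhibitor of cysteine cathepsins inside the cell, was at 8.10, 6.09 and 7.12 CPM in sham hearts and 49.4, 40.0, 25.6 and 48.1 CPM at 24 h (2.33 ± 0.20, adjusted p = 2.7e-06). Stfa2l1 had a larger difference (4.35), but it belongs to a family of near-identical genes among which the counting may divide reads. Cst3, the secreted inhibitor, was not called, with 198 to 233 CPM in sham hearts and 238 to 262 CPM at 24 h (0.21, adjusted p = 0.0815). Tfe3 was higher (0.80) and Mitf lower (-0.48) among 4 MiT factors, of which 2 were higher and 1 lower. Mitf was not called without sham I (-0.36, adjusted p = 0.0707). Tfeb, the factor best known for lysosomal genes, was not called (-0.17, adjusted p = 0.273). Of 9 other cathepsin genes 3 were in the tables and 2 tested, as Ctsw was below 1 CPM throughout. Ctso was lower (-0.92) and Ctse, an endosomal aspartic protease, higher (from 0.506 to 0.847 CPM in sham hearts to 3.10 to 12.5 CPM).

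With AC against Luc modRNA at 48 h, 13 of 34 other hydrolases were higher and 0 lower, as were 3 of 12 sorting genes, 3 of 14 membrane proteins and 1 of 16 V-ATPase subunits. Over all genes, 12.1% were called higher and 3.27% lower. After median-ratio rescaling the list counts were 9 higher and 1 lower, 1 higher, 1 higher, and 1 higher and 1 lower. Of all 12555 genes, 845 were then higher and 774 lower. Asah1, 1 of the 13 hydrolases called higher, had a log2 difference of 1.51 ± 0.29 (limma, adjusted p = 0.00166). For Asah1, reads of an injected message cannot be told apart from those of the gene itself. Lgmn was at 176, 213, 222 and 201 CPM with AC and 140.1, 126, 97.5 and 129 CPM with Luc (0.72 ± 0.14, adjusted p = 0.00123). M6pr was higher by 0.36 ± 0.10 (adjusted p = 0.0178), a call lost after rescaling (0.22, adjusted p = 0.118) and without AC 5 (0.34) or Luc 3 (0.33). Igf2r (0.45), Psap (-0.09), Cst3 (0.06), Cstb (0.21) and Tfeb (-0.15) were not called. Among 5 cystatins tested 2 were lower, both of the stefin A family, and none of 4 MiT factors was called, with 1 lower after rescaling.

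**Figure D4:**
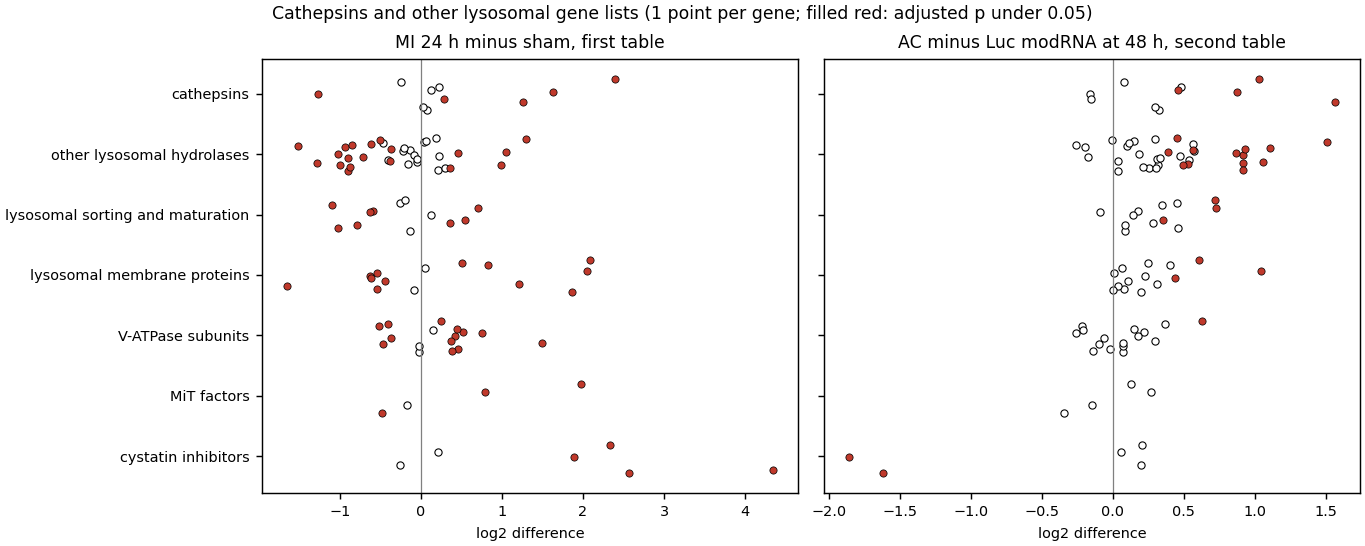
Log2 difference on log2(CPM + 1) of the cathepsins and 6 other lysosomal gene lists, for MI at 24 h against sham in the first table (left) and AC against Luc modRNA at 48 h in the second table (right), 1 point per gene, filled red where the adjusted p was under 0.05; vertical scatter within a list has no meaning. Of 34 other hydrolases, 14 are called lower on the left (30.3% of all genes) and 0 on the right (3.27%), where 13 are called higher (12.1%), Asah1 among them.

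The genes whose levels followed each cathepsin most closely over both tables were sought among 7351 genes that averaged 10 CPM or more in each, by the lower of the Pearson correlations over 10 and over 24 libraries, which share groups and times. For Ctss these were Ms4a6c (0.973), Tgfbi (0.971) and Mpeg1 (0.966), the last a pore protein of macrophages, and 65 genes stood above 0.9. For Ctsz they were Clic1 (0.956), Gm6548 (0.955) and Snx1 (0.955), with 57 genes above 0.9, and for Ctsc Apln (0.937), Tram1 (0.936) and Kdelr3 (0.934), with 28. For Ctsf they were Gcdh (0.911), Coq5 (0.895) and Art1 (0.894), of which Gcdh and Coq5 are mitochondrial enzymes. Ctsd was closest to Vapb (0.899), Ctsl to Siah1a (0.809), Ctsb to Dnajb11 (0.756), Ctsk to Serpinf1 (0.733), Ctsa to Asna1 (0.731) and Ctsh to Vopp1 (0.553). Within the groups of the second table, that is after subtracting group means, the correlation fell to 0.695 for Ms4a6c with Ctss, 0.562 for Apln with Ctsc and 0.117 for Gcdh with Ctsf, and remained at 0.846 for Vapb with Ctsd. Among the cathepsins themselves, Ctss and Ctsz were closest over all libraries (0.981 in the first table and 0.948 in the second), but at 0.50 within groups, where Ctsb with Ctsd (0.808) and Ctsa with Ctsz (0.769) were closest. Ctsd correlated with Ctsa at 0.761 and with Ctss at 0.176 within groups.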

How the data were processed

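Reads were mapped to mm10 by the authors using STAR; Partek Flow then assigned counts to RefSeq gene models by expectation-maximization, and TMM scaling followed. The study's text describes this without naming a table, and the second table was taken to be made alike. The deposited values are CPM, scaled by the authors with TMM. In the 24-library table each CPM held an added 1, as its lowest value shows, which was subtracted. The labels name a stranded kit, but use of strand in counting is not given in the sources used here.

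Genes averaging 1 CPM or more in a table were tested on log2(CPM + 1) with limma 3.58.1 (lmFit, eBayes with trend) in R 4.3.3, all groups of a table in 1 model without covariates, with Benjamini-Hochberg adjustment over all genes and a threshold of 0.05. This replaces the study's own test in Partek, which was not at hand. Fold changes on this scale understate those of low genes. Per-library values used Python 3.11. The script was tested on simulated reads. The cathepsins, lists, motifs and tests were chosen with earlier results of these data known. Named genes of other lists are the 2 largest changes in each direction at 24 h after MI averaging 10 CPM or more, and Asah1, Lgmn, Psap, Cst3, Cstb, M6pr, Igf2r and Tfeb, while Ctse was added after its values were seen and 1 gene is not reported here. Replicate labels were not used to pair libraries, other than in the replicate block below. Alternatives were a pseudocount of 0.1, no filter or one at 10 CPM, limma without trend, with array weights or on the compared groups alone, median-ratio rescaling, a replicate block, and each library left out.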

Additional observations from a re-analysis of the deposited data

Results flagged for a closer look

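In groups of 4, 4 of 50 combinations of gene and group held a library far from the other 3, by Dixon's test, where chance gives about 1 in 20. At 4 h with Luc modRNA, replicate 1 was the highest for Ctsd (1421 CPM, others 1156 to 1198), Ctsh (31.5 CPM, others 24.9 to 25.4) and Ctsz (28.7 CPM, others 23.2 to 23.5). At 48 h with Luc modRNA, replicate 2 was the highest for Ctsf (11.5 CPM, others 8.41 to 8.83).

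For Ctsc, Ctss and Ctsz, the AC minus Luc difference was larger at 48 h than at earlier times, by the test of the change itself in limma. The calls against 24 h were the less firm, with 0 to 3 left when a library was left out. Against 24 h, the change on the log2 scale was 1.33 for Ctsc, 1.05 for Ctss and 0.85 for Ctsz (adjusted p = 0.0239, 0.0247 and 0.0283). Against 4 h it was 1.46 for Ctsc, 1.24 for Ctss and 0.88 for Ctsz (adjusted p = 0.00946, 0.00696 and 0.0144).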

How the results depend on the processing

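Of 944 recomputed values of the 61 cathepsin differences that were called, 866 stayed called in the same direction, 78 lost the call and 0 changed sign. Counts of called cathepsins moved by over 1.5 times as follows. Array weights gave 2 in place of 0 for MI 4 h against sham and 5 in place of 3 for AC 24 h against 4 h. Median-ratio rescaling gave 5 there and 4 in place of 7 for Luc 48 h against 24 h. For the change of the AC minus Luc difference from 24 h to 48 h, the compared groups alone gave 0 in place of 3. With a library left out, counts ranged from 0 to 3 there, from 2 to 4 for Luc 24 h against sham, from 2 to 4 for AC 24 h against 4 h and from 5 to 8 for Luc 48 h against 4 h. Values that changed sign were all uncalled. With array weights these were Ctsb at 4 h (0.117) and Ctss at 24 h (0.0485) for AC against Luc, and Psap (0.0286) and Tfeb (0.101) at 48 h. With rescaling they were Asah1 after MI (-0.0137), Ctss at 24 h (0.0138) and Cst3 at 48 h (-0.0814). With a library left out they ranged from -0.0215 to 0.0816 for Asah1, -0.0579 to 0.0977 for Ctsb, -0.0895 to 0.0302 for Ctss, -0.1441 to 0.0086 for Psap, -0.1105 to 0.1552 for Cst3, -0.0092 to 0.2897 for Cstb and -0.2743 to 0.0049 for Tfeb. The cause of these moves was not tested.

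For libraries sharing a replicate number or letter, deviations from the group means had correlations from -0.206 to 0.345 over 14 pairs. Pairs with unlike labels were not computed, so whether the labels pair libraries was not tested. With the replicate block, the 24 h to 48 h change gave 0 in place of 3, Ctsz lost its call for the 4 h to 48 h change (0.85, adjusted p = 0.0524), Ctsb (0.46, 0.0655) and M6pr (0.33, 0.0639) were not called at 48 h for AC against Luc, nor were Ctsl (0.18, 0.245) and Scpep1 (0.31, 0.129) at 24 h after MI or Ctsa from 4 h to 48 h with Luc (-0.32, 0.0777), and Asah1 after MI was -0.0602. Of the 15 contrasts of modRNA hearts, 10 could be fitted with the block. Depth limits values near 1 CPM, and is unknown in the second table.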
